A study of Mus musculus with 12 samples.

Results

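The mitochondrial ribosome and the machinery that brings proteins into mitochondria were represented by 69 genes of the 6427 genes measured on cDNA microarrays of mouse brain. They were chosen by symbol alone. Mrpl genes stand for the large ribosomal subunit (36 genes) and Mrps genes for the small subunit (17). Timm genes stand for the translocases of the inner membrane and their intermembrane space chaperones (9), and Tomm genes for the outer membrane translocase (7). Roles follow the symbols, so a role can hold a protein of another place, as with Mrps18a and Tomm34 below. A gene was counted when at least 1 spotted cDNA clone that the probe table ties to that gene alone had a value in all 12 samples. The 69 genes were read by 101 clones. Of these genes 29 had more than 1 clone, which were averaged, and 40 rested on 1. A further 7 clones that the table assigns jointly to a member and another gene were not used.

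The mutants were Gja9(-/-) mice, lacking the gap junction gene Gja9, and Gja9(+/-) mice, which carry 1 ablated copy; the controls were wildtype mice. All 3 groups are labelled C57Bl/6j and were at postnatal day 10, and total RNA came from brain. Gja9 is an older symbol of Gjd2, which encodes connexin36, a protein that forms electrical synapses between neurons. Each genotype had 4 biological replicates, and 2 of the same genotype were hybridised in opposite colours on each of 2 arrays, so that 6 arrays carried the 12 samples. Which samples shared an array was read from the values. The labels do not give the sex of the mice or whether the ablation was limited to any cell type. No clone tied to Gja9 or Gjd2 alone had values, so the genotypes could not be checked on the ablated gene. The myelin gene Mbp lay between 2.36 and 3.83 log2 units above the sample mean. The neuronal cytoskeleton gene Map2 lay between 2.05 and 2.95 above it. The myelin gene Mal, however, lay below the mean in all 12 samples, and the neuronal genes Syt1 and Nefm in some. The erythroid gene Hbb-b1 lay above it in all 12. Such levels therefore do not identify the tissue, which is taken from the labels.

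Mammalian mitochondria carry their own ribosome, which makes the few proteins encoded in mitochondrial DNA, all of them subunits of the oxidative phosphorylation complexes. Its ribosomal RNAs are mitochondrial, but every protein of both subunits is encoded in the nucleus, made in the cytosol and imported. Import starts at the outer membrane, where Tomm20, Tomm22 and Tomm70a act as receptors around the Tomm40 pore. It continues through the inner membrane translocases built on Timm17 and Timm22 proteins, and small Timm chaperones carry hydrophobic proteins across the intermembrane space. Neurons depend on these systems for the respiration that powers synapses.

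Promoters of such genes are known for binding sites of ETS family factors such as GABP, of NRF1 and of YY1. RefSeq windows of 300 bases (250 before the annotated start and 50 from it on, build GRCm38.p6) were at hand for 60 of the 69 members. Each was searched on both strands. The ETS core CCGGAAG stood in 23 of 60 (38.3%), against 21.2% of the 5178 measured genes with a window and 12.9% of the 17491 protein-coding genes with one. The NRF1 core TGCGCA, the same on both strands, stood in 20 (33.3%), against 17.1% and 11.0%. The YY1 core AAGATGG stood in 13 (21.7%), against 9.31% and 7.18%. The 3 motifs were counted separately, and a window may hold more than 1 of them. Shown here are the 150 bases before the start of 4 members that return in the comparisons below. Each has matches in that stretch, which are in capitals. Mrpl53 codes for a large subunit protein and lies at chr6:83108958-83109107, Tomm22 codes for the central import receptor and lies at chr15:79670718-79670867, Tomm70a codes for the receptor of carrier proteins and lies at chr16:57121564-57121713, and Mrps18a codes for a ribosomal protein and lies at chr17:46110854-46111003, all on the + strand.
Mrpl53: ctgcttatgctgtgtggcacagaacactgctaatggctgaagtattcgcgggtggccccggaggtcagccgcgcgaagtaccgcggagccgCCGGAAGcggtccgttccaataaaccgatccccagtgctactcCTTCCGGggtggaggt
Tomm22: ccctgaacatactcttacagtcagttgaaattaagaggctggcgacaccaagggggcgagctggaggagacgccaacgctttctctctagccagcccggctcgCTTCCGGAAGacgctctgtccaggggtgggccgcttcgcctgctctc
Tomm70a: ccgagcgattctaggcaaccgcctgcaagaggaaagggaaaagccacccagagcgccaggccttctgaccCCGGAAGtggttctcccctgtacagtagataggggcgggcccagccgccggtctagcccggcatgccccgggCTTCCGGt
Mrps18a: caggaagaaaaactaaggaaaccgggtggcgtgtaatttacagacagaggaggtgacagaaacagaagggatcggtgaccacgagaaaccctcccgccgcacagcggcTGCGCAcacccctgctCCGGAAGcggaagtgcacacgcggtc
Mrpl53 held the ETS core on either strand, with the nearer match 16 to 10 bases before the start. In Tomm22 matches on the opposite strands overlapped 47 to 38 bases before the start. Tomm70a had its matches 80 to 74 and 8 to 2 bases before the start, and Mrps18a held the NRF1 core 42 to 37 and the ETS core 26 to 20 bases before it. Outside the printed stretch, Tomm22 held another ETS match 5 to 11 bases after the start, and Mrps18a the YY1 core 11 to 17 bases after it. These are matches of letters, and binding was not measured.

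The values are log2 signals of 1 colour, set so that each sample's mean signal is 1 (a value of 0). A difference is the mean log2 value of the first genotype named minus that of the second, from 1 limma fit over all 9514 features (genes, and clones without a single gene). A gene was called when its p, adjusted by the Benjamini-Hochberg method over all features, was under 0.05. Because genotype differed only between arrays, each comparison rests on 2 arrays against 2. The colours of an array lay close together, with a median distance of 0.09 to 0.10 log2 units over the members in the 3 genotypes. The 2 arrays of a genotype differed by a median of 0.42 in Gja9(-/-), 0.29 in Gja9(+/-) and 0.42 in wildtype. The first Gja9(-/-) array (samples 1 and 2) stood apart from the other 5 on the main axis of variation, which held 44.4% of the variance. It scored 54.6, the second Gja9(-/-) array 12.6, and the Gja9(+/-) and wildtype arrays lay between -23.3 and -10.2. The Gja9(-/-) differences the text turns on are therefore given with and without the first Gja9(-/-) array. Values of neighbouring probes on the array list also moved together, so differences were computed a second time after centring each probe on its neighbours. Of the 10 members with the smallest p in each comparison, 6 in Gja9(-/-) against wildtype and 2 in Gja9(-/-) against Gja9(+/-) were smaller by over 1.5 times without the first Gja9(-/-) array. After centring on neighbours it was 5 in Gja9(-/-) against wildtype, 2 in Gja9(+/-) against wildtype and 8 in Gja9(-/-) against Gja9(+/-).

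No member was called in any comparison of the 3 genotypes. In Gja9(-/-) against wildtype 0 of 69 members passed, where 0.326% of all features did. In Gja9(+/-) against wildtype 0 of 69 passed, as did 0.0% of all features. In Gja9(-/-) against Gja9(+/-) 0 of 69 passed, against 0.273% of all features. A test for any difference among the genotypes called 0 of 69 members as well. Its smallest adjusted p among them was 0.277, and 4 members (5.8%) had an unadjusted p under 0.05, against 10.9% of all features. The standard error of a member's difference had a median of 0.34 log2 units, between 0.25 for Timm17b and 0.76 for Mrps23, so that a 95% interval at the median reached 0.72 to either side. A difference of that size could go uncalled here, and so could larger ones, since the interval is not adjusted over all features. Mrps16, at -1.56 in Gja9(-/-) against wildtype, was not called (limma adjusted p = 0.177).

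**Figure D1:**
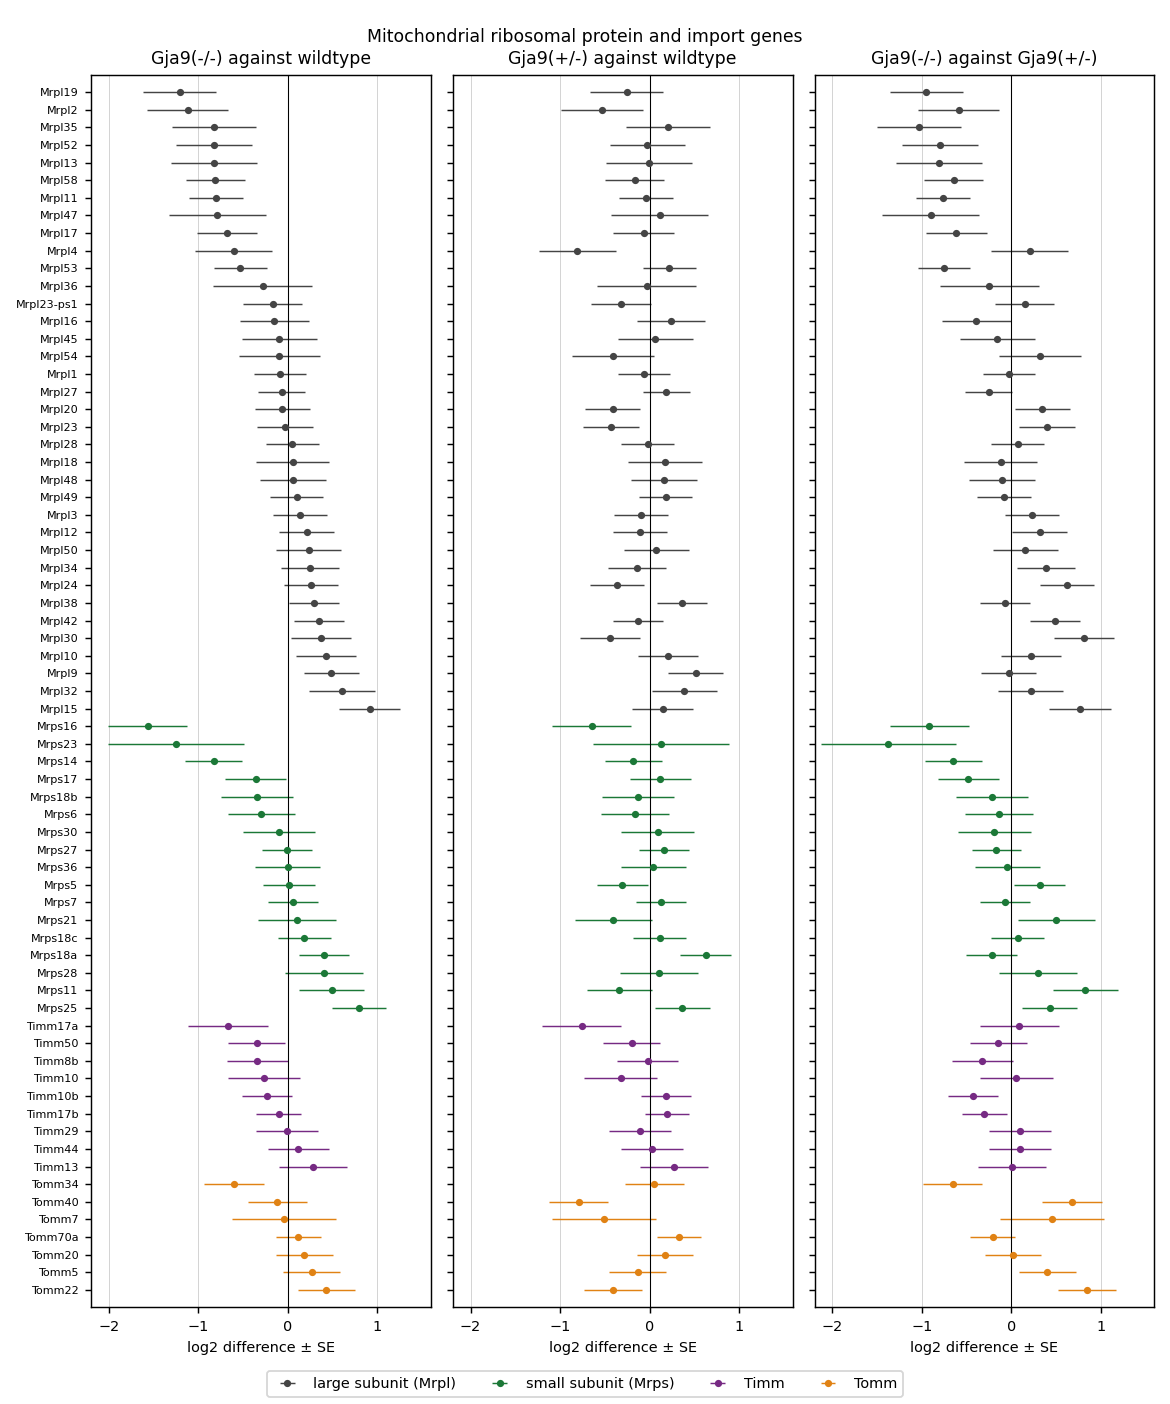
Log2 difference ± SE (x axis) of each of the 69 members (rows, grouped by role and ordered within a role by the left panel) in the 3 comparisons, from the limma fit to 12 samples on 6 arrays. Points lie on either side of 0 in every role, and differences over 1 log2 unit in size occur for 4 members in the left panel, 0 in the middle one and 2 in the right one.

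In Gja9(-/-) brains the members as a group lay near the wildtype level. Their median difference was -0.05, against -0.10 over all features, with 31 members above 0 and 38 below. At an unadjusted p under 0.05, 2 members were higher (2.9% of members, 2.41% of all features) and 6 lower (8.7% of members, 9.22% of all features). All 4 Gja9(-/-) values lay above all 4 wildtype values for 4 members (5.8%, against 7.52% of all features) and below them for 9 members (13.0%, against 15.6%). Each of these shares of members is close to its share of all features. By role, the median difference was -0.06 in the large subunit, 0.00 in the small subunit, -0.24 among the Timm genes and 0.12 among the Tomm genes. Without the first Gja9(-/-) array these medians were -0.05, -0.22, -0.06 and 0.17, and after centring on neighbouring probes -0.05, -0.11, 0.12 and 0.10.

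Among small subunit genes, Mrps16 showed the largest difference of all members between Gja9(-/-) and wildtype. It read -4.68, -4.58, -2.89 and -3.15 in the Gja9(-/-) samples, -3.21, -3.09, -2.63 and -2.70 in the Gja9(+/-) samples, and -2.17, -2.26, -2.30 and -2.30 in the wildtype samples. All Gja9(-/-) and all Gja9(+/-) values lay below the wildtype values, and the 2 lowest came from the first Gja9(-/-) array. The difference from wildtype was -1.56 ± 0.44 (SE; 0.338-fold; limma adjusted p = 0.177) for Gja9(-/-), and it was -0.76 without that array and -0.97 after centring on neighbouring probes. The Mrps16 signal was low: in all 12 samples it lay below the median over all features, which was between -1.03 and -0.84. The same held for Mrpl19, Mrpl11 and Mrpl2 below. Mrps14, a protein of the small subunit head, read -1.98, -2.09, -1.82 and -2.08 in Gja9(-/-), -0.85, -0.97, -1.79 and -1.76 in Gja9(+/-), and -1.11, -1.17, -1.15 and -1.21 in wildtype. Its Gja9(-/-) values were low on both arrays, while the Gja9(+/-) arrays fell on either side of wildtype. The Gja9(-/-) difference from wildtype was -0.83 ± 0.32 (adjusted p = 0.336), -0.79 without the first Gja9(-/-) array and -0.86 after centring on neighbours. Mrps25 was the higher one of this role, at 0.94, 0.95, 0.35 and 0.34 in Gja9(-/-), 0.38, 0.23, 0.13 and 0.11 in Gja9(+/-), and 0.23, 0.15, -0.48 and -0.51 in wildtype. Its Gja9(-/-) difference from wildtype was 0.80 ± 0.31 (adjusted p = 0.336), and 0.50 without the first Gja9(-/-) array. Its 3 clones gave 1.66, 0.62 and 0.12, so 1 clone carried most of the difference.

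**Figure D2:**
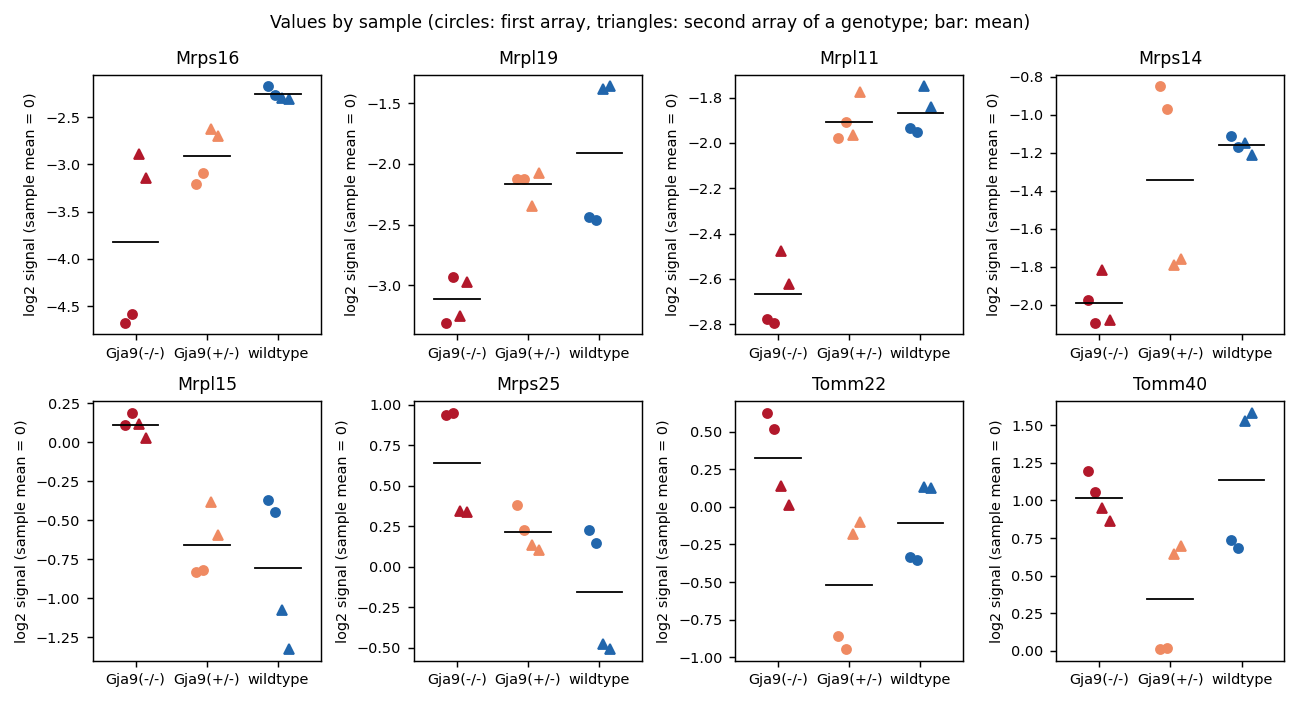
Log2 signal relative to the sample mean (y axis, own scale per gene) of 8 members in each of the 12 samples, with circles for the first and triangles for the second array of a genotype and a bar at the genotype mean. Samples of the same array lie close together, as for Mrps16, where the first Gja9(-/-) array read -4.68 and -4.58 and the second -2.89 and -3.15.

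Among large subunit genes, Mrpl19 read -3.31, -2.94, -3.26 and -2.97 in Gja9(-/-), -2.12, -2.12, -2.35 and -2.08 in Gja9(+/-), and -2.44, -2.46, -1.38 and -1.36 in wildtype. The Gja9(-/-) values lay below all others on both arrays, and the wildtype arrays differed from each other by about as much. The difference from wildtype was -1.21 ± 0.41 (0.433-fold; adjusted p = 0.270), -1.20 without the first Gja9(-/-) array and -0.82 after centring on neighbouring probes. All 3 Mrpl19 clones lay below 0, at -1.26, -0.61 and -1.75. Mrpl11, which forms the base of the stalk that recruits translation factors, read -2.78, -2.79, -2.48 and -2.62 in Gja9(-/-), -1.98, -1.91, -1.97 and -1.78 in Gja9(+/-), and -1.94, -1.95, -1.75 and -1.84 in wildtype. Both Gja9(-/-) arrays were low and the other 4 arrays alike, with a Gja9(-/-) difference from wildtype of -0.80 ± 0.30 (adjusted p = 0.330) and -0.68 without the first array. Its clone is 1 of 3 member clones that fall at the end of the probe numbering (3 of 48 equal segments), and after centring on neighbouring probes the difference was -0.27. These segments held 2.97% of the 101 member clones, against 7.01% of all probes with values.

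Mrpl15 was the member highest in Gja9(-/-) relative to wildtype. It read 0.11, 0.19, 0.11 and 0.03 in Gja9(-/-), -0.83, -0.82, -0.38 and -0.60 in Gja9(+/-), and -0.37, -0.45, -1.07 and -1.33 in wildtype. The 4 Gja9(-/-) values were close together and above the 8 others. The difference from wildtype was 0.92 ± 0.34 (1.89-fold; adjusted p = 0.329), 0.88 without the first Gja9(-/-) array and 0.69 after centring on neighbouring probes. Mrpl2, a protein of the ribosome's catalytic core, read -3.63, -3.32, -2.59 and -2.41 in Gja9(-/-) and -1.65, -1.70, -1.91 and -2.21 in wildtype. Mrpl58, a peptidyl-tRNA hydrolase that became part of the large subunit, read -1.40, -1.52, -0.25 and -0.34 in Gja9(-/-) and -0.17, -0.22, 0.09 and 0.04 in wildtype. For both, the groups did not overlap but the first Gja9(-/-) array lay well below the second. The Gja9(-/-) difference from wildtype was -1.12 ± 0.45 for Mrpl2 (adjusted p = 0.363), -0.63 without that array and -0.42 after centring on neighbours. For Mrpl58 it was -0.81 ± 0.33 (adjusted p = 0.364), -0.23 without it and -0.67 after centring on neighbours. Mrpl17 and Mrpl52 overlapped between the groups, with Gja9(-/-) differences of -0.68 and -0.82 from wildtype that came to -0.12 and -0.21 without the first array, and to 0.02 and -0.09 after centring on neighbours. Mrpl42 (0.35, and 0.25 without the first array) and Mrps18c (0.18, and 0.22 without it) were the other members whose Gja9(-/-) values all lay above wildtype, and Mrpl53 (-0.53, and -0.55 without it) was another whose values all lay below.

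Among the import genes, the extreme differences between Gja9(-/-) and wildtype were smaller, while the role medians above were farther from 0 than those of the ribosomal genes. The Timm genes lay between -0.67 and 0.28 and the Tomm genes between -0.60 and 0.43. These roles also hold fewer genes (9 and 7, against 36 and 17). Timm17a, a subunit of the channel that admits presequence proteins, read -1.25, -1.59, -1.11 and -1.09 in Gja9(-/-), -1.86, -1.52, -1.08 and -0.93 in Gja9(+/-), and -0.68, -0.62, -0.49 and -0.57 in wildtype. Both mutant genotypes lay wholly below wildtype, by -0.67 ± 0.44 for Gja9(-/-) (adjusted p = 0.607; -0.51 without the first Gja9(-/-) array) and by -0.76 ± 0.44 for Gja9(+/-) (adjusted p = 1.0). Its 2 clones did not give the same result: the Gja9(-/-) differences were -0.06 and -1.28, and the Gja9(+/-) differences -1.21 and -0.30. Timm17b, the alternative subunit, differed from wildtype by -0.10 ± 0.25 in Gja9(-/-) and by 0.20 ± 0.25 in Gja9(+/-); the Gja9(-/-) difference was -0.20 without the first Gja9(-/-) array. Timm44, which ties the import motor to the channel, differed by 0.12 ± 0.35 and 0.02 ± 0.35 in Gja9(-/-) and Gja9(+/-), and by -0.06 in Gja9(-/-) without that array. Timm50, the channel's receptor, differed by -0.35 ± 0.32 in Gja9(-/-) (-0.39 without that array), with clones at 0.49 and -1.19. Of the intermembrane space chaperones, Timm8b, Timm10 and Timm13 differed by -0.34 ± 0.34, -0.27 ± 0.41 and 0.28 ± 0.38 in Gja9(-/-) against wildtype, and by 0.10, 0.46 and 0.63 without that array.

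Tomm34, a cytosolic cochaperone of preproteins, was the Tomm gene whose Gja9(-/-) values lay wholly below wildtype. It read -0.88, -0.90, -1.51 and -1.37 in Gja9(-/-), -0.39, -0.55, -0.43 and -0.66 in Gja9(+/-), and -0.54, -0.72, -0.48 and -0.52 in wildtype. The Gja9(-/-) difference from wildtype was -0.60 ± 0.33 (adjusted p = 0.518), and -0.88 without the first Gja9(-/-) array. One of its clones gave -1.59 (adjusted p = 0.128 over all clones) and the other 0.38. The receptors Tomm20 and Tomm70a and the small subunit Tomm5 differed by 0.19 ± 0.31, 0.12 ± 0.25 and 0.27 ± 0.32 in Gja9(-/-) against wildtype, and by 0.46, 0.17 and 0.11 without the first Gja9(-/-) array.

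In Gja9(+/-) brains the members were again near wildtype, with a median difference of -0.02 against 0.03 over all features. At an unadjusted p under 0.05, 1 member was higher (1.45% of members, 1.67% of all features) and 1 lower (1.45% of members, 0.515% of all features). Groups did not overlap for 5 members on the higher side (7.25%, against 8.67% of all features) and for 6 on the lower side (8.7%, against 6.09%). The adjusted p of every member was 1.0. Role medians were -0.03 in the large subunit, 0.09 in the small subunit, -0.02 among the Timm genes and -0.13 among the Tomm genes.

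Tomm40, the pore of the outer membrane, had the smallest unadjusted p of these members in Gja9(+/-) against wildtype. It read 1.20, 1.06, 0.95 and 0.87 in Gja9(-/-), 0.01, 0.02, 0.64 and 0.69 in Gja9(+/-), and 0.74, 0.68, 1.53 and 1.58 in wildtype. Gja9(+/-) and wildtype overlapped, since the second Gja9(+/-) array lay at the level of the first wildtype array. The difference was -0.79 ± 0.33 (0.577-fold; limma unadjusted p = 0.0313). Mrps18a, shown above with its NRF1 match, one of 3 paralogs with Mrps18b and Mrps18c and a protein that structures place in the large subunit, read -0.42, -0.49, -0.37 and -0.38 in Gja9(+/-) and -1.25, -1.23, -0.79 and -0.91 in wildtype. All its Gja9(+/-) values lay above wildtype, by 0.63 ± 0.28 (limma unadjusted p = 0.0427).

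Further Gja9(+/-) differences from wildtype without overlap were 0.52 for Mrpl9, 0.36 for Mrpl38, 0.33 for Tomm70a and 0.20 for Timm17b on the higher side. On the lower side they were -0.65 for Mrps16, -0.53 for Mrpl2, -0.51 for Tomm7, -0.43 for Mrpl23 and -0.31 for Mrps5. Tomm70a, shown above with its promoter, had 1 clone at -0.50 and another at 1.15, so its value of 0.33 is a mean of clones on opposite sides. Mrpl4 read -1.98, -1.97, -1.97 and -1.80 in Gja9(+/-) and -1.59, -1.81, -0.52 and -0.56 in wildtype. Its difference of -0.81 ± 0.43 was the lowest of the members in that comparison, and the groups overlapped. Mrpl23 has a pseudogene copy, Mrpl23-ps1, among the members; long cDNA clones may not tell such copies apart, and their Gja9(+/-) differences from wildtype were -0.43 and -0.32.

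In Gja9(-/-) against Gja9(+/-) the members lay on both sides of 0 in like numbers. Their median difference was -0.04, against -0.17 over all features, with 32 members above 0 and 37 below. Without the first Gja9(-/-) array the median over the members was 0.04, against -0.11 over all features. At an unadjusted p under 0.05, 4 members were higher (5.8% of members, 3.64% of all features) and 4 lower (5.8% of members, 11.3% of all features). Groups did not overlap for 11 members on the higher side (15.9%, against 10.2% of all features) and for 10 on the lower side (14.5%, against 22.5%). Role medians were -0.05 in the large subunit, -0.14 in the small subunit, 0.01 among the Timm genes and 0.40 among the Tomm genes, and 0.05, -0.09, 0.04 and 0.29 without that array. Under median centring, quantile and cyclic loess normalization the median over all features came to -0.06, -0.01 and -0.02, and that over the members lay 0.13 to 0.16 above it, against 0.13 above it as deposited. This comparison and the first use the same Gja9(-/-) samples.

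**Figure D3:**
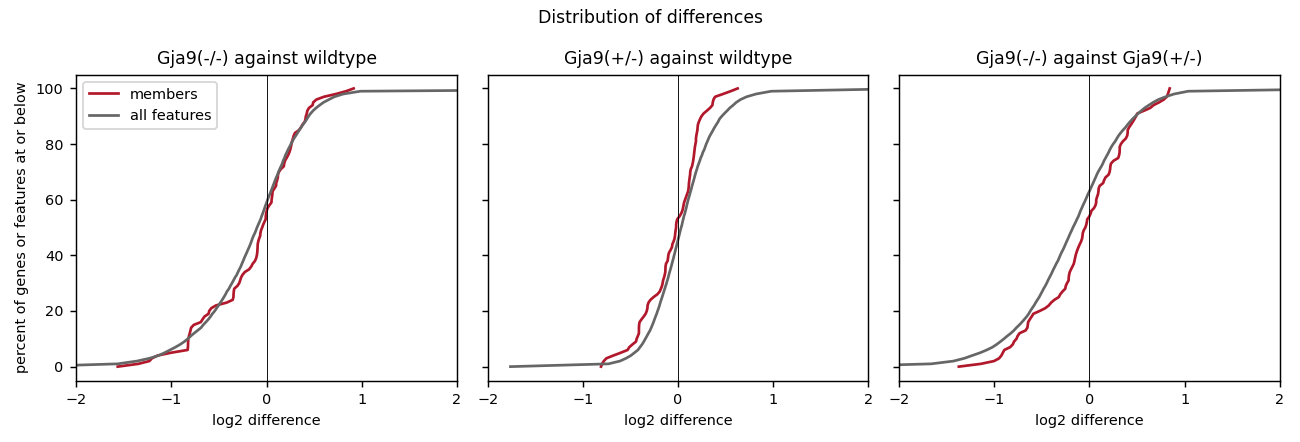
Percent of the 69 members (red) and of all 9514 features (grey) whose log2 difference lies at or below the value on the x axis, in the 3 comparisons. In the middle panel the members' line is to the left at the upper end, with a 90th percentile of 0.25 against 0.46 for all features, and in the right one the members' median of -0.04 lies to the right of the -0.17 of all features.

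Tomm22 had the smallest adjusted p of the members between Gja9(-/-) and Gja9(+/-). It read 0.63, 0.52, 0.14 and 0.01 in Gja9(-/-), -0.86, -0.94, -0.18 and -0.10 in Gja9(+/-), and -0.33, -0.36, 0.13 and 0.12 in wildtype. Every Gja9(-/-) value lay above every Gja9(+/-) value, and the wildtype values lay between or among them. The difference from Gja9(+/-) was 0.84 ± 0.32 (1.79-fold; adjusted p = 0.249), 0.59 without the first Gja9(-/-) array and 0.40 after centring on neighbouring probes. Its clones gave 1.0 and 0.69. Tomm40 was 0.68 ± 0.33 higher in Gja9(-/-) than in Gja9(+/-) without overlap (adjusted p = 0.360; 0.57 without that array and 0.40 after centring on neighbours).

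Mrpl53, the gene shown above with ETS matches, was the lower member with the smallest adjusted p. It read -1.19, -1.15, -1.08 and -1.33 in Gja9(-/-), -0.53, -0.56, -0.28 and -0.39 in Gja9(+/-), and -0.53, -0.52, -0.80 and -0.80 in wildtype. The Gja9(-/-) values were close together on both arrays and below the 8 others. The difference from Gja9(+/-) was -0.75 ± 0.29 (adjusted p = 0.259), -0.77 without the first Gja9(-/-) array and -0.72 after centring on neighbours. Mrpl30 read 0.10, 0.04, -0.36 and -0.39 in Gja9(-/-), -1.14, -1.15, -0.87 and -0.70 in Gja9(+/-), and -0.74, -0.93, -0.24 and -0.18 in wildtype. It lay 0.81 ± 0.34 above Gja9(+/-) (adjusted p = 0.282), 0.59 without that array and 0.31 after centring on neighbours.

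Mrps23 had the lowest difference between Gja9(-/-) and Gja9(+/-) and the largest standard error. It read -3.62, -3.05, -3.40 and -2.65 in Gja9(-/-), -2.15, -2.31, -1.37 and -1.40 in Gja9(+/-), and -3.24, -2.71, -0.88 and -0.90 in wildtype. Its wildtype arrays were 2.08 apart, the largest distance between arrays of a genotype among the members. The difference from Gja9(+/-) was -1.37 ± 0.76 (adjusted p = 0.414), -1.22 without the first Gja9(-/-) array and -1.52 after centring on neighbours. Mrpl35 differed by -1.03 ± 0.47 (adjusted p = 0.324), by -0.38 without it and by -0.59 after centring. Mrps11, a protein of the platform that holds the messenger RNA, differed by 0.83 ± 0.37 (adjusted p = 0.313), by 0.57 without it and by 0.42 after centring. Mrpl11, Mrpl19, Mrps14 and Tomm34 lay wholly below Gja9(+/-) as well as below wildtype, and Mrpl15 and Mrpl42 wholly above both. Their Gja9(-/-) differences from Gja9(+/-) were -0.76, -0.95, -0.65, -0.66, 0.77 and 0.48, and -0.64, -0.95, -0.61, -0.93, 0.73 and 0.38 without the first Gja9(-/-) array. Over the alternative settings given below, the value nearest 0 was -0.18 for Mrpl11, -0.39 for Mrpl19, -0.40 for Tomm34 and 0.46 for Mrpl15. Clones did not all share the direction: those of Mrpl19 gave -1.39, 0.02 and -1.48 in this comparison, and those of Tomm34 0.03 and -1.35.

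Different clones of the same member often pointed in opposite directions. In Gja9(-/-) against wildtype 15 of the 29 members with several clones had clones on both sides of 0 (51.7%, against 56.8% of 2586 genes with several clones). In Gja9(+/-) against wildtype it was 13 (44.8%, against 59.3%), and in Gja9(-/-) against Gja9(+/-) 16 (55.2%, against 55.1%). The widest distance in Gja9(-/-) against wildtype was in Mrps18b, with clones at 0.75 and -1.44, a span of 2.19. Mrpl1 had clones at 0.70 and -0.87, and Mrpl32 at 1.10 and 0.11. No member clone was called on its own in any comparison, and the smallest adjusted p was that of the Tomm34 clone above. Single-clone members, such as Mrps16, Mrpl11 and Mrpl15, have no such check.

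**Figure D4:**
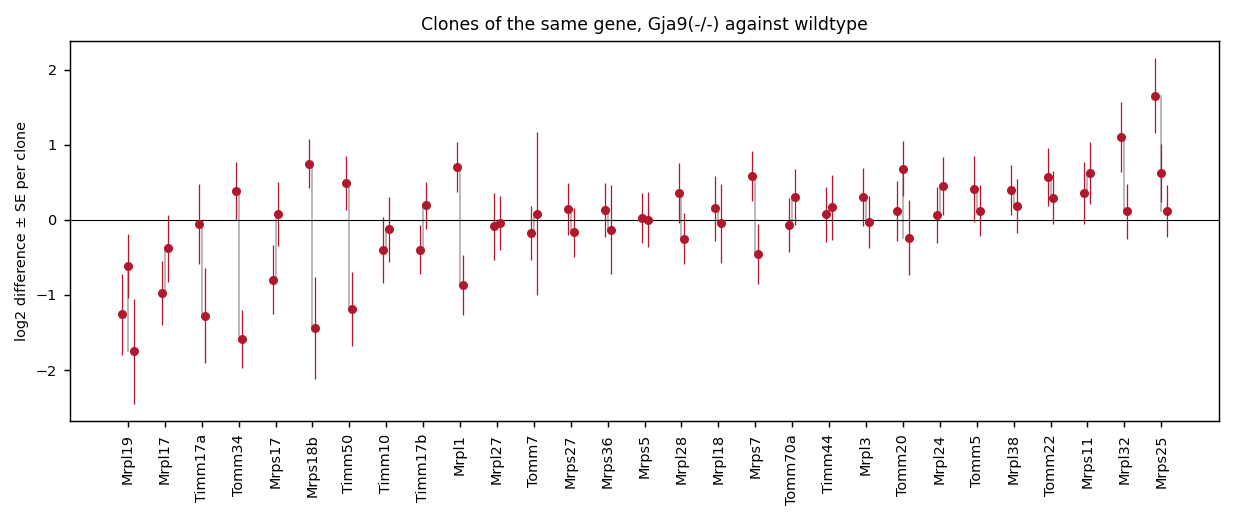
Log2 difference ± SE of Gja9(-/-) against wildtype (y axis) for every clone of the 29 members with several clones (x axis, ordered by the mean of their clones), with a grey line joining clones of a gene. Mrpl19, with all 3 clones below 0, stands at the left end, Mrps25 at the right, and Mrps18b spans 2.19.

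Genes that work with the members were measured in 4 lists, 83 genes in all. Of 20 translation factors and tRNA enzymes and of 37 further import and processing genes 0 were called in any comparison of the deposited values, and likewise of 8 regulators. Of 18 genes of mitochondrial DNA and RNA maintenance 1 was called, in Gja9(-/-) against wildtype and against Gja9(+/-), where 0.326% and 0.273% of all features were. This gene, Rnaseh1, which removes RNA from RNA-DNA hybrids, fell to -3.16, -3.11, -3.79 and -3.92 in Gja9(-/-), against -1.42, -1.27, -1.40 and -1.42 in Gja9(+/-) and -1.63, -1.59, -1.54 and -1.65 in wildtype. The difference from wildtype was -1.89 ± 0.31 (adjusted p = 0.0206; -2.26 without the first Gja9(-/-) array). From Gja9(+/-) Rnaseh1 differed by -2.12 ± 0.31 (limma adjusted p = 0.028). On array means and under median centring, quantile and cyclic loess normalization 0 of all features were called in that comparison. The call against wildtype was lost in other settings. Its adjusted p was 0.107 on array means, 0.182 and 0.105 under quantile and cyclic loess normalization, and 0.129 with the 2 genotypes alone. It was 0.275 after centring on neighbouring probes, where the difference was -0.82. That centring in turn called Chchd4, an import oxidase of the intermembrane space, at 1.02 in Gja9(-/-) against wildtype (adjusted p = 0.0496). It also called, in Gja9(-/-) against Gja9(+/-), Chchd4 (1.36, adjusted p = 0.0149), the cristae protein Chchd6 (-1.75, adjusted p = 0.0281) and Vdac1 (1.21, adjusted p = 0.0276). These 3 genes were named after their values were seen. The centring called 54 of all 9514 features in Gja9(-/-) against wildtype and 125 in Gja9(-/-) against Gja9(+/-). With array means it called 0 of them in either comparison.

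Among the other listed genes, Aifm1, which brings Chchd4 to the intermembrane space, differed by -1.33 ± 0.37 in Gja9(-/-) against wildtype (adjusted p = 0.166; -0.83 without the first Gja9(-/-) array). Vdac1, the outer membrane channel for metabolites, differed by 1.09 ± 0.34 (adjusted p = 0.236; 0.79 without it). Mrrf, the factor that recycles mitochondrial ribosomes, differed by -1.10 ± 0.37 (adjusted p = 0.275; -0.48 without it), and Mtg1, a GTPase of large subunit assembly, by -1.10 ± 0.45 (adjusted p = 0.373; -0.47 without it). Nrf1, whose motif was searched above, read -2.34, -2.22, -1.48 and -1.78 in Gja9(-/-), -0.15, -0.23, -1.01 and -1.01 in Gja9(+/-), and -1.20, -1.31, -0.81 and -1.17 in wildtype. Its Gja9(-/-) values lay wholly below both other genotypes, by -0.83 against wildtype (adjusted p = 0.461; -0.51 without the first Gja9(-/-) array) and by -1.36 against Gja9(+/-) (adjusted p = 0.159; -1.03 without it). Of the 8 regulators, 1 lay wholly below wildtype in Gja9(-/-) (15.6% of all features did) and 2 wholly above (7.52%). These 2 were Yy1, whose motif was also searched, at 0.40 ± 0.27, and Nfe2l2 at 0.85 ± 0.52 (limma adjusted p = 0.615 and 0.564). Against Gja9(+/-) 3 lay wholly below and 2 wholly above (22.5% and 10.2% of all features).

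In whole brain, fewer cells of a type and less RNA per cell cannot be told apart. Markers of neurons (7 of 14 listed were measured), astrocytes (5 of 10), oligodendrocytes (3 of 10), microglia (4 of 10), vessels (6 of 10), erythroid cells (3 of 9) and choroid plexus (2 of 7) were called in no comparison of the deposited values. Their median Gja9(-/-) differences from wildtype were -0.21, 0.36, -0.64, -0.21, 0.05, 0.17 and 0.04 in that order. After centring on neighbouring probes the astrocyte transporter Slc1a3 was called in Gja9(-/-) against Gja9(+/-), but with array means that centring called 0 of all features. The erythroid gene Alas2 was called in that comparison without the dye term, with array weights or with the replicate block. Its difference there was -1.71 as deposited, while the erythroid genes Hbb-b1 and Hba-a2 lay on the other side, at 0.73 and 0.18. The part of these cell types in the members' values was not tested.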

How the data were processed

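RNA of 12 mouse brains was measured on two-colour cDNA arrays. The deposited table holds log2 signals of single colours, a scale inferred from the numbers themselves: taken as powers of 2, they have a mean of 1.0 in every sample. The sources used here do not say how the authors normalized them. Of 28704 probes 13443 had values in all samples and 15261 in none. Of those with values 10356 had 1 gene in the probe table, 560 several and 2527 none, and averaging clones per gene left 9514 features. The 69 members and all lists were chosen with earlier results of these data known.

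The array of each sample was read from the values: samples 1 and 2, and 3 and 4, of a genotype gave the pairing used, because the differences of samples 1 and 3 and of samples 2 and 4 correlated across probes (r = 0.933, 0.919 and 0.940 in Gja9(-/-), Gja9(+/-) and wildtype). limma 3.58.1 (R 4.3.3) fitted genotype and dye to all samples, with array as a random block (consensus correlation 0.928) and Benjamini-Hochberg adjustment over all features, tests being two-sided. The dye was taken from the label field, which for 2 samples the labelling text contradicts. Sample spread may be partly technical. The number of arrays limits the precision, and background signals were not analysed. As a check of pairing by replicate number, deviations from the group means correlated across features at 0.11 to 0.23 between Gja9(+/-) and wildtype samples of the same number, at -0.09 to -0.05 between Gja9(-/-) and wildtype, and at 0.02 to 0.07 between Gja9(-/-) and Gja9(+/-).

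Genes named are, per comparison, the 10 members with the smallest p and up to 10 with the largest difference without overlap, and the 3 with the smallest p over genotypes in each role; others were chosen after their values were seen. The alternatives were other normalizations, centring on the median deviation of 50 probes on either side, other blocks and priors, the brightest clone, leaving out the dimmest 25% of features, the first Gja9(-/-) array or any sample. Longer forms of the NRF1 and YY1 motifs were searched before the cores given here, which are less specific; the shares depend on that choice.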

Additional observations from a re-analysis of the deposited data

Results flagged for a closer look

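Mrpl4 in Gja9(+/-) had a single sample away from its group: its highest value was -1.80, and the 3 others lay at -1.98, -1.97 and -1.97. The gap to the nearest of them was 0.964 of the group's range, above Dixon's critical value for 4 samples. It was the 1 such case among 96 groups examined. Chance gives about 1 in 20 for 4 independent samples, but here the 2 colours of an array lay close together. That rate therefore does not hold for these groups. The Gja9(+/-) difference from wildtype was -0.81 ± 0.43, and the sample's distance from the others is small beside the distance between the wildtype arrays, which read -1.59 and -1.81 against -0.52 and -0.56.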

How the results depend on the processing

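With the array block or array means, 0 of 69 members were called at an adjusted p under 0.05 under each alternative, as deposited also at an adjusted p under 0.1, and when each sample was left out in turn (lowest 0, highest 0 in each comparison and in the test over genotypes). The exception in number is the fit without the dimmest 25% of features, which left 50 members, of which 0 were called. The unadjusted p was under 0.05 for 8, 2 and 8 members in Gja9(-/-) against wildtype, Gja9(+/-) against wildtype and Gja9(-/-) against Gja9(+/-), for 14, 4 and 12 under centring on neighbouring probes, and for 3, 5 and 4 without the first Gja9(-/-) array. In the test over genotypes it was 4, 13 and 1 in these settings. Of the 50 members left without the dimmest features it was 4, 2 and 4, and 2 in the test over genotypes. The share of all features at this level was not counted in these alternatives, so the counts show nothing particular to the members. Features called over all 9514 also rose under that centring, from 31 to 54, 0 to 1 and 26 to 125 in the comparisons. In the test over genotypes they rose from 31 to 91. Without the array block the 2 colours of an array are taken as independent. Members called were then 10 in Gja9(-/-) against wildtype, 0 in Gja9(+/-) against wildtype, 10 in Gja9(-/-) against Gja9(+/-) and 11 in the test over genotypes. The same fit called 1464, 70, 2119 and 1997 of all 9514 features in that order. The median over the members in Gja9(-/-) against wildtype was 0.0303 under median centring, 0.0949 under quantile and 0.109 under cyclic loess normalization, where the median over all features, -0.10 as deposited, came to -0.02, 0.02 and 0.02. In Gja9(-/-) against Gja9(+/-) it was 0.068, 0.151 and 0.110 under these and 0.076 under centring on neighbouring probes, with array means (chosen after seeing the data) or without. Relative to all features the members' median in Gja9(-/-) against wildtype was 0.05 as deposited and -0.03 under centring on neighbouring probes. With the array block or array means, the smallest limma adjusted p of a member was 0.0653, for Mrpl58 under that centring. Mrpl17 in Gja9(-/-) against wildtype reversed to 0.0201 under it, also with array means, and Tomm70a in Gja9(+/-) against wildtype reversed to -0.50 with its brightest clone; the cause was not tested. With a replicate block the medians were -0.05, -0.02 and -0.04, and pairing changed no call. Left out in turn, samples moved the median to between -0.055 and -0.0251 in Gja9(-/-) against wildtype, between -0.034 and -0.0081 in Gja9(+/-) against wildtype, and between -0.0589 and -0.0257 in Gja9(-/-) against Gja9(+/-).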
